A study of Mus musculus with 24 samples.

Results

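The microRNAs (miRNAs) miR-221 and miR-222 were followed in the mouse mammary gland through 3 mature strands, mmu-miR-221-3p, mmu-miR-221-5p and mmu-miR-222-3p, which were chosen by name from the 1009 miRNAs listed. Whole mammary gland tissue of 24 female mice of the inbred strain C57BL/6 was ground and its small RNA sequenced, with a library for each mouse and 6 mice for each of 4 stages, which are listed in stage order as W10, P18, Lac7 and Inv3. W10 stands for adult mice of 10 weeks of age, P18 for day 18 of gestation, Lac7 for day 7 of lactation and Inv3 for day 3 of involution, the regression of the gland once milk is no longer removed. These days are those of the library labels and the study's methods, and the design text of the series has day 3 for lactation and day 7 for involution. Levels are in RPM, the reads of a miRNA per 1000000 of its library, as deposited. The libraries held 660346 to 1165321 reads, fewest at Lac7 (660346 to 751890), and 1 read stood for 0.858 to 1.51 RPM.

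A miRNA pairs through its seed, bases 2 to 8, with sites in the 3′ untranslated regions (3′UTRs) of mRNAs, and lowers their translation and stability. The genes Mir221 and Mir222 lie side by side on the X chromosome and are known for repressing the cell cycle inhibitors Cdkn1b and Cdkn1c, the receptor tyrosine kinase Kit and estrogen receptor alpha (Esr1), the receptor through which estrogen drives growth of the mammary ducts. In breast cells they are known as miRNAs of basal and mesenchymal types, with low levels in luminal cells that express Esr1.

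The RefSeq sequences of the 3 strands (GRCm38.p6) are shown because their seeds decide which of them can share target sites, with the seed in capitals and 5′ to 3′.
miR-221-3p: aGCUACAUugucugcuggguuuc
miR-222-3p: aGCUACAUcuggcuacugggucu
miR-221-5p: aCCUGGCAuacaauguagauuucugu
The first 8 bases of miR-221-3p and miR-222-3p are identical, and 11 of 23 positions match when both are laid side by side without gaps. Among the 854 listed miRNAs with a sequence in this table, no other shared their seed, and none shared that of miR-221-5p. The longest run that miR-221-3p has in common with another listed miRNA is 8 bases, that of miR-222-3p is 9 bases and that of miR-221-5p is 8 bases. The Mir221 hairpin lies at chrX:19146294-19146388 and the Mir222 hairpin at chrX:19146893-19146971, both on the minus strand and 504 bases apart, with Mir222 first in the direction of transcription. In the GENCODE annotation of GRCm38 no other gene overlaps the cluster, and the nearest, the long noncoding RNA Gm14636, lies 10009 bases away on the same strand.

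The 3 strands differed widely in level. Over the 24 libraries, miR-221-3p had a mean of 2229 RPM from 48868 reads and rank 49 of all 1009 miRNAs, miR-222-3p had 26.6 RPM from 580 reads and rank 234, and miR-221-5p had 7.39 RPM from 162 reads and rank 303. Every library held at least 1 read of each. The remaining strand of the cluster, miR-222-5p, had 17 reads in all and means of 0.508 to 1.39 RPM by stage, below the 2.57 to 4.54 RPM that 3 reads are worth. It was among the miRNAs tested below, and none of its changes between stages passed on either scale (log2 values of -0.53 to 0.55 with RPM). So few reads limit what could be seen.

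miR-221-3p carried nearly all reads of the cluster and was higher at Lac7 and Inv3 than at P18. At W10 its level ran from 1663 RPM over a median of 1776 to 2424 RPM, and at P18 from 1534 over 1851 to 1994 RPM. At Lac7 it ran from 2259 over 2528 to 2739 RPM, and at Inv3 from 2434 over 2738 to 2814 RPM. All 6 mice at Lac7 and all 6 at Inv3 lay above all 6 at P18, while the W10 mice fell into 4 between 1663 and 1820 RPM and a pair, mice 3 and 4, at 2424 and 2334 RPM, which overlap with Lac7. Of the 544 miRNAs tested below, 29.0% had no overlap in either direction between Lac7 and P18, and 12.5% had none between Inv3 and P18. In order, the means were 2658 ± 167 RPM at Inv3, 2519 ± 156 at Lac7, 1946 ± 341 at W10 and 1792 ± 193 at P18 (SD, n = 6 each).

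**Figure D1:**
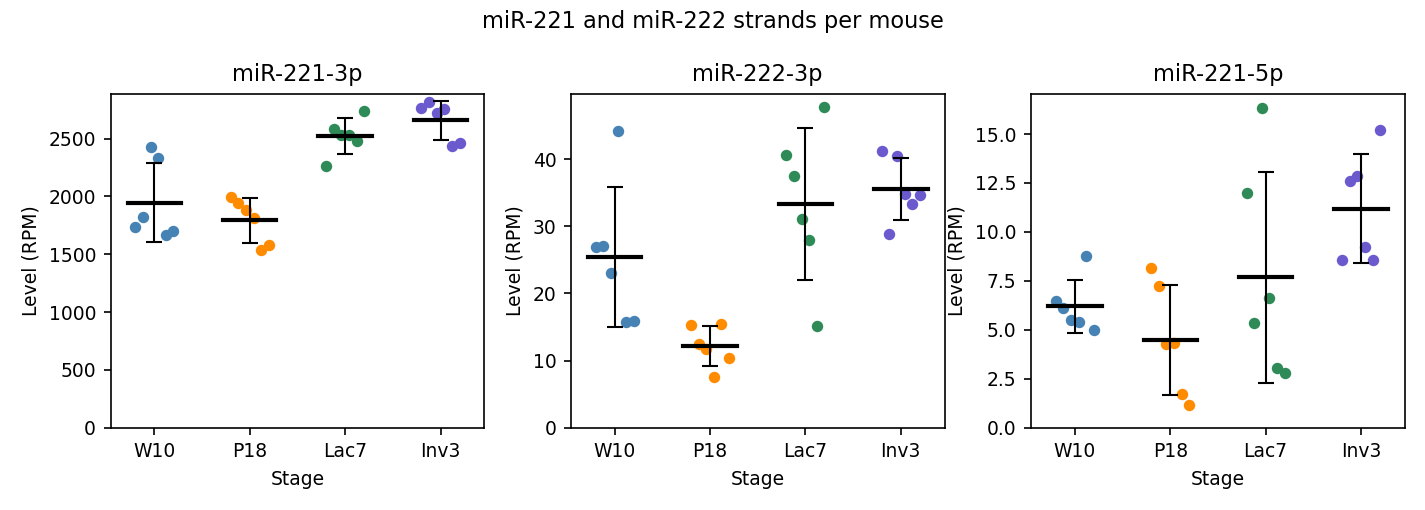
Level in RPM (linear axes from 0) of miR-221-3p, miR-222-3p and miR-221-5p in each mouse by stage; points are mice, bars are the mean and SD of 6 mice. All Lac7 and Inv3 mice lie above all P18 mice for miR-221-3p, and miR-222-3p is lowest at P18, between 7.59 and 15.5 RPM.

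Changes between stages were tested with limma on log2(RPM + 1) over 544 miRNAs, those whose mean reached 1 RPM in any stage, with Benjamini-Hochberg adjustment over all of them, and all 3 strands were among these. A change on this scale understates that of a miRNA of few reads. Scaling mattered for the whole table. The median log2 change of all 544 miRNAs was -0.32 for P18 against W10, -0.34 for Lac7 against P18, 0.28 for Inv3 against Lac7, -0.66 for Lac7 against W10, -0.41 for Inv3 against W10 and -0.11 for Inv3 against P18. With DESeq2 size factors, which scale a library by the median ratio of its miRNAs to their typical level, in place of RPM, these medians became -0.12, -0.14, 0.18, -0.31, -0.10 and -0.02. The main changes of the strands are therefore given on both scales, several of them also relative to these medians. In whole tissue, fewer cells of a type and less RNA per cell cannot be told apart.

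From P18 to Lac7, miR-221-3p rose by 0.50 on the log2 scale (SE 0.11, 95% interval 0.28 to 0.72, limma adjusted p = 0.000408), a ratio of mean levels of 1.41. This was 0.84 above the median of all miRNAs. With size factors the change was 0.80 (limma adjusted p = 8.36e-07), 0.94 above the median. In this comparison 13.8% of all 544 miRNAs rose and 31.4% fell by the same call (with size factors, 105 rose and 132 fell, against 75 and 171). From Lac7 to Inv3 the value was 0.08 (95% interval -0.14 to 0.30, limma adjusted p = 0.573) with RPM and -0.10 with size factors, so its sign depended on the scaling and a difference was not detected (relative to the median of all miRNAs, -0.21 and -0.28), in a comparison where 27.9% of miRNAs rose and 18.9% fell (126 and 121 with size factors, against 152 and 103).

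From W10 to P18 miR-221-3p had a log2 value of -0.11 (95% interval -0.33 to 0.11, limma adjusted p = 0.436) with RPM and 0.14 (limma adjusted p = 0.319) with size factors, and here too the sign turned with the scaling, while relative to the median of all miRNAs the values were 0.21 and 0.26. Of all miRNAs, 12.1% rose and 29.4% fell in this comparison (93 and 121 with size factors, against 66 and 160). Against W10, miR-221-3p was higher by 0.39 at Lac7 (SE 0.11, limma adjusted p = 0.00261) and by 0.46 at Inv3 (SE 0.11, limma adjusted p = 0.00103). With size factors these were 0.94 and 0.84, more than 1.5 times as large, and no Lac7 mouse then overlapped with W10. With RPM, 41.7% of all 544 miRNAs had no overlap in either direction between Lac7 and W10, and this share was not computed with size factors. Relative to the median of all miRNAs, both changes of miR-221-3p were 1.05 and 0.88 with RPM and 1.25 and 0.94 with size factors. In the comparison of Lac7 with W10, 18.2% of miRNAs rose and 48.5% fell, and in that of Inv3 with W10, 7.9% rose and 31.2% fell (with size factors 132 and 206, against 99 and 264, and 69 and 91, against 43 and 170). Between P18 and Inv3 miR-221-3p rose by 0.57 (SE 0.11, limma adjusted p = 0.000215), or 0.70 with size factors, where 10.8% of miRNAs rose and 17.6% fell (67 and 75 with size factors, against 59 and 96).

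miR-222-3p, with the same seed and far fewer reads, was lowest at P18. At W10 it ran from 15.7 RPM over a median of 25.0 to 44.1 RPM, and at P18 from 7.59 over 12.1 to 15.5 RPM. At Lac7 it ran from 15.1 over 34.3 to 47.8 RPM, and at Inv3 from 28.8 over 34.7 to 41.2 RPM. Every P18 mouse lay below every W10 mouse (with size factors these stages overlapped) and below every Inv3 mouse, and Lac7 mouse 5, with 10 reads, lay within the range of P18 while the other 5 lay above it. Between P18 and W10, 26.7% of all 544 had no overlap, and between Inv3 and P18 12.5%. The stage means were 35.5 ± 4.65 RPM at Inv3, 33.3 ± 11.3 at Lac7, 25.5 ± 10.4 at W10 and 12.1 ± 3.00 at P18 (SD, n = 6 each), from 72 reads in all at P18 to 215 at Inv3.

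miR-222-3p fell by 0.96 on the log2 scale from W10 to P18 (SE 0.26, 95% interval -1.50 to -0.42, limma adjusted p = 0.00376), a P18 mean of 0.476 times that of W10. With size factors the value was -0.72 (limma adjusted p = 0.0307), 0.60 below the median of all miRNAs. From P18 to Lac7 it rose by 1.34 (SE 0.26, 95% interval 0.80 to 1.88, limma adjusted p = 0.000128), a ratio of means of 2.75, and with size factors by 1.63. It was 1.50 higher at Inv3 than at P18 (SE 0.26, limma adjusted p = 8.53e-05), a ratio of means of 2.93, and 1.62 higher with size factors. Between Lac7 and Inv3 the value was 0.16 (95% interval -0.38 to 0.70, limma adjusted p = 0.628) with RPM and -0.01 with size factors.

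Against W10, the call for miR-222-3p depended on the scaling. With RPM its log2 values were 0.38 at Lac7 (limma adjusted p = 0.205) and 0.54 at Inv3 (limma adjusted p = 0.102), both short of the threshold of 0.05. With size factors they were 0.91 (limma adjusted p = 0.00382) and 0.90 (limma adjusted p = 0.00975), both past it. With RPM they also passed when a single library was left out, with 0.58 at Lac7 without Lac7 mouse 5 (limma adjusted p = 0.0429) and 0.71 at Inv3 without W10 mouse 4 (limma adjusted p = 0.0305). With no library left out, the values at Lac7 and Inv3 were 1.04 and 0.95 above the median of all miRNAs with RPM, and 1.22 and 1.0 above it with size factors.

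miR-221-5p, the strand opposite to miR-221-3p in its hairpin, was near the limit of detection, with 1 to 14 reads per library. At W10 it ran from 4.97 RPM over a median of 5.81 to 8.75 RPM, and at P18 from 1.15 over 4.30 to 8.15 RPM. At Lac7 it ran from 2.81 over 6.0 to 16.3 RPM, and at Inv3 from 8.57 over 10.9 to 15.2 RPM. Every Inv3 mouse lay above every P18 mouse, as for 12.5% of all 544 in either direction, and the other stages overlapped. The stage means were 11.2 ± 2.78 RPM at Inv3, 7.69 ± 5.39 at Lac7, 6.20 ± 1.36 at W10 and 4.48 ± 2.83 at P18 (SD, n = 6 each). miR-221-5p rose by 1.31 from P18 to Inv3 (SE 0.37, limma adjusted p = 0.00898), and by 1.41 with size factors, in both cases 1.42 above the median of all miRNAs. The log2 values of the other 5 comparisons lay between -0.56 and 0.75, none past the threshold with RPM. With size factors the difference of Inv3 from W10 was 1.07 (limma adjusted p = 0.0279), where it was 0.75 (limma adjusted p = 0.112) with RPM. The value of Inv3 against Lac7, 0.68 (limma adjusted p = 0.138), passed only without Lac7 mouse 3, which had the most reads of its stage (0.93, limma adjusted p = 0.0397).

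Apart from the pseudocount of 1, a ratio of 2 miRNAs within one library does not depend on the scaling, so it shows whether the strands moved by unequal amounts. The ratio of miR-221-3p to miR-222-3p ran from 52.9 over a median of 86.2 to 107 at W10, and from 99.3 over 154 to 239 at P18. It ran from 55.7 over 75.1 to 163 at Lac7 and from 67.1 over 72.0 to 97.7 at Inv3. All 6 Inv3 mice had a lower ratio than any P18 mouse, 5 of them with the pseudocount of 1 added, and at P18, 5 of 6 mice had a higher ratio than any W10 mouse with or without it. As a share of both strands with this seed, miR-222-3p made up 1.28% ± 0.397, 0.680% ± 0.191, 1.30% ± 0.431 and 1.32% ± 0.172 in stage order (SD, n = 6 each).

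In exact permutation tests over the 924 splits of 6 mice against 6 (two-sided), the mean log2 ratio of miR-221-3p to miR-222-3p was 0.85 higher at P18 than at W10 (SE 0.24, p = 0.00866, adjusted p = 0.0519 over 12 comparisons). Between P18 and Inv3 the difference was -0.93 (SE 0.18, exact p = 0.00433, adjusted p = 0.0519). The difference between Lac7 and P18 was -0.84 (SE 0.27, exact p = 0.0195, adjusted p = 0.0779). These 3 differences were short of the threshold after adjustment, and unequal movement of both strands was therefore not established by this test. The call depended on single libraries and on the pseudocount. With a pseudocount of 0.1 in place of 1, the difference of Inv3 from P18 was -0.998 (exact permutation, adjusted p = 0.026, where the alternatives to this difference, apart from a block by mouse number whose test cannot pass, ran from 0.013 to 0.117). Without P18 mouse 5, which has the lowest ratio of its stage, the differences of P18 from W10 and of Inv3 from P18 were 0.97 and -1.04 (exact permutation, adjusted p = 0.013 for both), and without Lac7 mouse 5, which has the highest of its stage, that of Lac7 from P18 was -1.04 (exact permutation, adjusted p = 0.026). Among W10, Lac7 and Inv3 the differences lay between -0.08 and 0.01 on the log2 scale.

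The ratio of miR-221-3p to miR-221-5p compares both strands of one hairpin. It ran from 190 over a median of 320 to 442 at W10 and from 245 over 431 to 1370 at P18. It ran from 155 over 432 to 975 at Lac7 and from 161 over 254 to 322 at Inv3. The stages overlapped in every comparison, and the wide ranges at P18 and Lac7 come with 1 to 8 and 2 to 11 reads of miR-221-5p per library. The lowest exact p among the 6 comparisons was 0.039 (difference -0.74 between P18 and Inv3, SE 0.31, adjusted p = 0.117). miR-221-5p made up 0.330% ± 0.111, 0.238% ± 0.134, 0.311% ± 0.223 and 0.421% ± 0.115 of both strands in stage order (SD, n = 6 each).

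**Figure D2:**
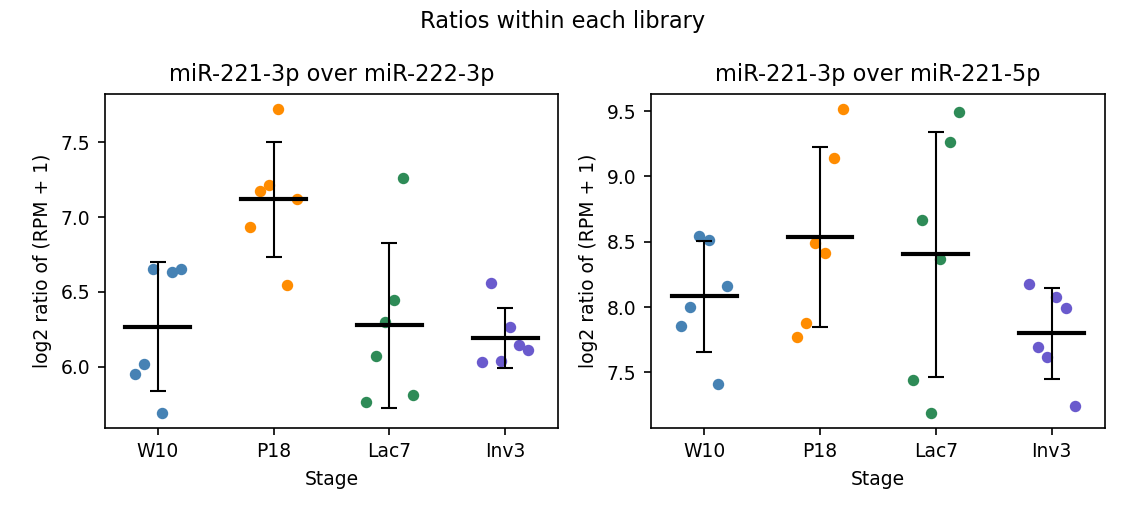
Log2 ratio of (RPM + 1) of miR-221-3p to miR-222-3p (left) and to miR-221-5p (right) in each mouse by stage, on axes that do not start at 0; points are mice, bars are the mean and SD of 6 mice. The left ratio has its highest mean at P18 (7.12, against 6.27 at W10, 6.28 at Lac7 and 6.19 at Inv3), and on the right the stages overlap.

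Strands from one cluster could also vary together between mice of the same stage. After subtracting the stage means of log2(RPM + 1), miR-221-3p and miR-222-3p had Pearson's r = 0.33 over 24 mice (permutation p = 0.183, adjusted p = 0.55 over 3 pairs) and Spearman's rho = 0.30 (permutation p = 0.199, adjusted p = 0.598). Without the 2 mice farthest from the median of miR-221-3p, r was 0.41. For miR-221-3p and miR-221-5p, r was 0.13 (permutation p = 0.516, adjusted p = 0.773) and rho was 0.15 (permutation p = 0.487, adjusted p = 0.73), with r = -0.10 without the 2 mice. For miR-221-5p and miR-222-3p, r was 0.08 (permutation p = 0.773, adjusted p = 0.773) and rho was 0.02 (permutation p = 0.932, adjusted p = 0.932), with r = 0.11 without the 2 mice. Within single stages of 6 mice, given as a description, r of miR-221-3p with miR-221-5p was -0.49, 0.96, -0.55 and -0.11 in stage order, so the pooled value joins stages of opposite sign, and at P18 it rests on 1 to 8 reads of miR-221-5p. For miR-221-3p with miR-222-3p these were 0.62, 0.0040, 0.19 and 0.094, and for miR-221-5p with miR-222-3p -0.35, 0.13, 0.22 and -0.21. None of the 3 pooled relations was detected, and the counting error of both strands of few reads limits what could be seen. Of the pair of W10 mice with high miR-221-3p, mouse 4 also had the highest miR-222-3p of its stage at 44.1 RPM, while mouse 3 had 23.0 RPM, below the median.

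By likeness of pattern over the 24 libraries, measured as the root-mean-square difference of centred log2(RPM + 1) among 157 miRNAs of at least 100 RPM, the nearest to miR-221-3p were miR-3074-5p (0.24), miR-24-3p (0.25), miR-126a-3p (0.30), miR-23b-3p (0.31) and let-7e-5p (0.32). The median of the 157 was 0.68. miR-24-3p had means of 430, 546, 643 and 580 RPM in stage order, miR-3074-5p had 4671, 5646, 6699 and 6228 RPM, and miR-126a-3p, a miRNA of endothelial cells, had stage means between 15310 and 18209 RPM. miR-3074-5p holds a run of 20 bases that is the reverse complement of miR-24-3p, so reads of both could not be told apart unless counting used strand. The study's methods name a stranded library kit (QIAseq), and whether strand was used in counting is not given in the sources used here, so these 2 may not be separate neighbours. Nearest to miR-222-3p were miR-1839-5p (0.54), miR-1843a-5p (0.60), miR-29b-3p (0.61), miR-500-3p (0.61) and miR-30a-5p (0.61), against a median of 0.95. Each of these 5 had its lowest mean at P18, which follows in part from choosing them by likeness to miR-222-3p over the same libraries. miR-29b-3p, which represses collagen mRNAs, had means of 579, 259, 490 and 524 RPM in stage order.

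Since the strands are known from basal and mesenchymal cells, marker miRNAs of cell types were set beside them. The 8 miRNAs of fibroblasts, led by miR-199a-3p, had sums of 96271 to 133516, 56567 to 71855, 20684 to 27322 and 49325 to 85813 RPM in stage order. All 8 of them fell from W10 to P18 and all 8 from P18 to Lac7, and all 8 rose from Lac7 to Inv3, with median log2 changes of -1.07, -1.23 and 1.48 (with size factors 8 fell, 7 fell and 8 rose). Of all miRNAs, 29.4% fell, 31.4% fell and 27.9% rose in these comparisons. From W10 to Lac7 all 8 fell, with a median of -2.74 against -0.66 for all miRNAs tested (48.5% of which fell), while miR-221-3p had 0.39. miR-222-3p had -0.96 from W10 to P18, where the list fell too, and 1.34 from P18 to Lac7, where the list fell again. The part of that list in the levels of the strands was not tested.

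The 4 miRNAs of basal epithelium and keratinocytes, led by miR-203-3p, had a median change of 0.83 from W10 to P18 (2 rose, 0 fell, 3 and 0 with size factors), where all miRNAs had -0.32 and 12.1% of them rose, and of -0.93 from P18 to Lac7 (all 4 fell, 2 of them with size factors), where all miRNAs had -0.34 and 31.4% fell. From Lac7 to Inv3 their median was 0.63 (2 rose, 1 fell, 1 and 1 with size factors), against 0.28 and 27.9% and 18.9% over all miRNAs. Their sum, most of it miR-203-3p, was 4779 to 9174, 6900 to 8243, 4375 to 5804 and 3153 to 4938 RPM in stage order. miR-205-5p, the basal epithelial miRNA among them, had means of 437, 461, 155 and 688 RPM, with a log2 change of -1.57 from P18 to Lac7 (limma adjusted p = 9.03e-06) where miR-221-3p and miR-222-3p rose. Of the 2 that rose from W10 to P18 with RPM, miR-205-3p had means of 2.16 and 7.45 RPM, where 3 reads are worth 2.57 to 4.54 RPM. The other was miR-31-5p, while miR-205-5p and miR-203-3p had log2 values of 0.15 and 0.26 (limma adjusted p = 0.656 and 0.147). The 4 of smooth muscle and myoepithelium, nearly all miR-143-3p, had sums of 85923 to 104516, 139519 to 156821, 130051 to 149291 and 215128 to 297681 RPM. Between P18 and Lac7, 0 of these 4 rose and 1 fell, on both scales, where 13.8% of all miRNAs rose and 31.4% fell, and from Lac7 to Inv3 all 4 rose (3 with size factors), where 27.9% of all did. From W10 to Inv3, where miR-221-3p rose, 3 basal miRNAs rose and 1 fell, and 3 of smooth muscle rose (4 with size factors) and 0 fell. Of all, 7.9% rose and 31.2% fell. From W10 to Lac7 these counts were 1 and 1 (3 and 1 with size factors), and 2 and 1 (2 and 0), against 18.2% and 48.5% of all. From P18 to Inv3 they were 0 and 1, and 2 and 0, on both scales, against 10.8% and 17.6%. The part of these lists in the levels of the strands was not tested.

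The 9 luminal and general epithelial miRNAs are led by miR-200a-3p. Their sums were 15683 to 21676, 52148 to 66646, 122909 to 142583 and 24969 to 83586 RPM in stage order. From P18 to Lac7, 7 rose and 0 fell (8 and 0 with size factors), with a median of 1.20, where 13.8% of all miRNAs rose and 31.4% fell, and from Lac7 to Inv3 all 9 fell (18.9% of all miRNAs did), with a median of -1.59, where no difference of miR-221-3p or miR-222-3p was detected. Against W10, 8 rose at P18, where miR-222-3p fell, and all 9 at Lac7 and Inv3, where miR-221-3p was higher. These counts held on both scales, with medians of 1.64, 3.13 and 1.47, where 12.1%, 18.2% and 7.9% of all rose. From P18 to Inv3, where both 3p strands rose, 1 rose and 2 fell (1 and 1 with size factors), where 10.8% and 17.6% of all did. The part of this list in the levels of the strands was not tested. The 2 endothelial strands, led by miR-126a-3p, had sums of 15368 to 16779, 14884 to 16421, 17157 to 19549 and 12532 to 17959 RPM, and both rose from P18 to Lac7, on both scales, with a median of 0.36 (13.8% of all miRNAs rose). From Lac7 to Inv3, 0 rose and 1 fell (27.9% and 18.9% of all), and from P18 to Inv3, 1 and 0 (10.8% and 17.6%). Against W10, 0 rose and 1 fell at P18 (12.1% and 29.4%), and 1 and 0 at Lac7 (18.2% and 48.5%). These counts held on both scales. At Inv3 against W10, 0 rose and 0 fell (1 and 0 with size factors, 7.9% and 31.2% of all). The part of this list was not tested either.

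**Figure D3:**
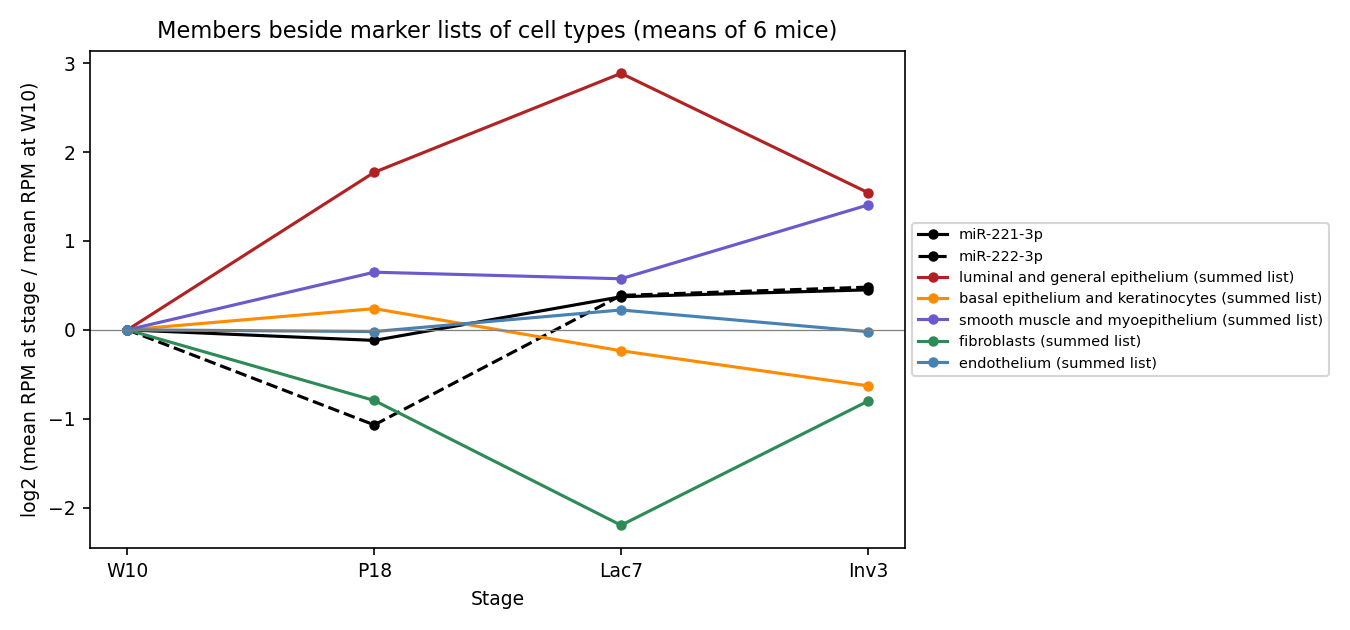
Log2 of the mean RPM of 6 mice at each stage over that at W10, for miR-221-3p and miR-222-3p (black) and for the summed RPM of 5 lists of marker miRNAs (colours). From P18 to Lac7 the fibroblast line goes down and those of miR-221-3p, miR-222-3p and luminal epithelium go up; with size factors the direction of miR-221-3p from W10 to P18 and of both strands from Lac7 to Inv3 turns.

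All 3 lymphocyte miRNAs fell from W10 to P18 on both scales, as did all 3 of the list called myeloid, with medians of -1.14 and -1.29. miR-222-3p fell too, as did 29.4% of all miRNAs. The myeloid list holds both strands of the leukocyte miRNA miR-142a beside miR-223-3p. From P18 to Lac7, where both 3p strands rose, all 3 lymphocyte miRNAs and all 3 myeloid miRNAs fell, with medians of -1.79 and -1.34 (with size factors, 3 and 2), where 31.4% of all miRNAs fell. From P18 to Inv3, where both 3p strands also rose, 0 lymphocyte miRNAs rose or fell and 1 myeloid miRNA rose, with medians of 0.20 and 0.39, where 10.8% of all miRNAs rose and 17.6% fell. Their sums had stage means of 4214, 2059, 573 and 2371 RPM for lymphocytes (most abundant miR-342-3p) and of 38627, 16934, 6952 and 18070 RPM for the myeloid list (most of it miR-142a-5p) in stage order. Its member miR-223-3p had means of 1884, 1197, 801 and 1837 RPM. From W10 to Inv3 miR-223-3p had a log2 value of -0.01 (limma adjusted p = 0.969), where miR-142a-3p and miR-142a-5p had -1.02 and -1.19. In that comparison 2 of the list fell, and 0 with size factors, where 31.2% of all miRNAs fell. The 3 adipose miRNAs, led by miR-365-3p, had sums with means of 608, 162, 94.1 and 148 RPM, the 4 of red blood cells, led by miR-451a, 1207, 648, 997 and 855 RPM, and the 3 of liver, led by miR-192-5p, 1631, 1935, 1917 and 1464 RPM. The liver mean at P18 rests on mouse 6 with 5395 RPM, and the other 5 mice, at 1106 to 1349 RPM, lay below every W10 mouse (lowest 1440 RPM). Between P18 and Lac7, 1 adipose miRNA fell (0 with size factors), 1 of red blood cells rose (2 with size factors), 1 of liver rose (1 with size factors) and none of the 4 of skeletal muscle passed the test on either scale, counts to be read against the 13.8% of all miRNAs that rose and the 31.4% that fell. The sum for skeletal muscle, led by miR-133a-3p, had means of 11360, 982, 2059 and 381 RPM in stage order and ran from 2378 to 24031 RPM at W10. Of its 4 miRNAs, 3 fell from W10 to P18 (median -3.66), where miR-222-3p fell and 29.4% of all miRNAs did, and all 4 were lower at Inv3 than at W10 (median -4.71), where miR-221-3p was higher and 31.2% of all miRNAs were lower, with the same counts on both scales. From W10 to P18, 2 adipose miRNAs fell on both scales. With RPM these were miR-365-3p and miR-193b-3p, the latter with means of only 4.70 and 0.912 RPM. The part of these lists in the levels of the strands was not tested. The W10 mice with high miR-221-3p, 3 and 4, were those with the lowest and the highest skeletal muscle sum of their stage.

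Because both 3p strands are known to repress Esr1, other miRNAs known for this were listed beside them. Of 7 on the list, 6 were listed and tested, miR-18a-5p, miR-18b-5p, miR-20b-5p, miR-22-3p, miR-193b-3p and miR-206-3p, and miR-302c-3p was not among the miRNAs analysed here. miR-193b-3p is also on the adipose list and miR-206-3p on that of skeletal muscle. Of these 6, 1 rose and 3 fell from W10 to P18, 0 rose and 3 fell from P18 to Lac7, and 2 rose and 3 fell from Lac7 to Inv3, with medians of -1.34, -0.59 and -0.08 against -0.32, -0.34 and 0.28 for all miRNAs tested. With size factors 1 rose and 3 fell, 1 rose and 2 fell, and 1 rose and 3 fell. Over all miRNAs, 12.1%, 13.8% and 27.9% rose and 29.4%, 31.4% and 18.9% fell in these comparisons, and with 6 miRNAs nothing particular to the list is read from its counts. miR-221-3p alone made up 75.0% of the summed RPM of these 6 and both 3p strands at W10, and 82.6%, 87.9% and 86.4% at the later stages. miR-22-3p, the next in level, had 429 ± 152, 180 ± 54.1, 208 ± 27.3 and 303 ± 58.2 RPM in stage order (SD, n = 6 each). miR-18a-5p rose from 38.9 RPM at W10 to 125 at P18 (log2 change 1.72, limma adjusted p = 9.56e-07) and fell to 71.4 at Lac7 (log2 change -0.77, limma adjusted p = 0.00822).

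The shared seed of miR-221-3p and miR-222-3p pairs with ATGTAGC in an mRNA, or with ATGTAGCA where an A lies opposite the first base of the miRNA. Letters on the mRNA strand were searched in the longest 3′UTR of each of 21021 protein-coding genes (GENCODE, GRCm38), of which 9.46% held ATGTAGC and 3.51% held ATGTAGCA, the longer motif being a part of the matches to the shorter. Among genes known as targets, Cdkn1b, Cdkn1c, Esr1, Kit, Bbc3, Bmf and Trps1 held both motifs, Timp3 held the shorter alone and Foxo3 held neither. Longer 3′UTRs hold the motifs more often, and among 3′UTRs within 20% of the length of that of Esr1 27.7% held the shorter motif, of Cdkn1b 22.2%, of Kit 15.2% and of Cdkn1c 4.59%. The genes were listed because they are known targets, so these matches are no measure of these data, and their mRNA levels were not analysed here.

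The matches of Esr1, of both cell cycle inhibitors and of Kit are shown with 11 bases before them and further bases after them, since these are the sites that both 3p strands could share, with the match in capitals, 5′ to 3′ on the mRNA strand. They lie in 3′UTR exons within chr10:5003587-5003615 (plus strand, base 2175 of 4191 of the 3′UTR) for Esr1, within chr6:134924420-134924448 (plus, base 2357 of 3439) for Cdkn1b, within chr7:143458915-143458943 (minus, base 95 of 688) for Cdkn1c, and within chr5:75654981-75655009 and chr5:75656512-75656540 (plus, bases 447 and 1978 of 2177) for Kit. These intervals cover each whole stretch shown.
Esr1: cagacaatcttATGTAGCAgagattatgc
Cdkn1b: aaaagcattggATGTAGCAttgcgcaatt
Cdkn1c: acctttcgttcATGTAGCAggaaccggag
Kit, first: atgggagatatATGTAGCAagactagaaa
Kit, second: taaatattgaaATGTAGCAataatgtctt
A match gives the letters present and does not show that a site is used in the mammary gland.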

How the data were processed

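Small RNA of 24 mouse mammary glands was sequenced, 1 library per mouse. The authors assigned reads to miRBase miRNAs with QuickMIRSeq and deposited RPM, and the submitters' processing notes also name Trimmomatic 0.36, cutadapt, FastQC, MultiQC and the build GRCm38. Dividing each library's values by the worth of 1 read left 100% of them whole (tolerance 0.02 reads). For W10 mouse 7 a read was worth 0.995 RPM, so near 1 that wholeness says less. The kit used for library preparation was a stranded QIAseq kit for miRNA. Whether its molecular identifiers were used in counting is not given in the sources used here, so a read is not known to be 1 molecule. Analyses used limma 3.58.1 (one fit over 24 libraries, eBayes with trend, stage as the term), edgeR 4.0.16 and DESeq2 1.42.0 on the recovered reads as alternatives, with R 4.3.3, and matplotlib 3.10.9, scipy 1.17.1, pandas 2.3.3 and numpy 2.4.6 under python 3.11.15. A miRNA rose or fell where the adjusted p (Benjamini-Hochberg, two-sided) was under 0.05. On recovered reads edgeR called 139 to 317 and DESeq2 142 to 295 miRNAs per comparison, against 155 to 363 with limma. Ratios were tested by exact permutation, relations with 100000 permutations of mice within stages. Named were the 3 strands, the 5 miRNAs most like miR-221-3p and miR-222-3p, and lists of cell type markers, Esr1 repressors and known targets. The strands and lists were chosen with earlier results of these data known. One gene of the target list is not reported here.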

Additional observations from a re-analysis of the deposited data

How the results depend on the processing

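For 39 results (18 changes of the strands, 6 counts, 12 ratios and 3 relations), 224 of 258 values under other settings were taken as the same. For changes, ratios and relations, this means the same direction and side of the threshold. A count has neither. All counts but those with a filter at 100 RPM were taken as the same, even 160 (size factors) against 213 for Inv3 against W10. The ratios with a replicate block are among the 258, although their test cannot pass. With 1 library left out, which was not done for the relations, 412 of 432 values were taken as the same, all those of the counts among them. Size factors change the scaling alone, while edgeR and DESeq2 change scaling and test model together, and the cause of the shifts was not tested. For miR-221-3p, P18 against W10 became 0.14 with size factors, 0.19 with edgeR and 0.14 with DESeq2, and Inv3 against Lac7 became -0.10 with size factors and -0.10 with DESeq2. For miR-222-3p, Inv3 against Lac7 became -0.0093 with size factors and -0.085 with DESeq2. Its differences from W10 passed the threshold with these 3 (Lac7 0.91, 0.86 and 0.96, Inv3 0.90, 0.90 and 0.88), as did that of miR-221-5p at Inv3 (1.07, 1.21 and 1.19). The last also passed with a pseudocount of 10 (0.38) and a fit of only 12 libraries (0.75), and Lac7 against P18 of miR-221-5p passed with DESeq2 (1.06).

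With a filter at 100 RPM, 188 miRNAs were tested, and the counts of changed miRNAs were 127 for P18 against W10, 132 for Lac7 against P18, 151 for Inv3 against Lac7, 164 for Lac7 against W10, 123 for Inv3 against W10 and 101 for Inv3 against P18, fewer because fewer were tested. This filter leaves no value for miR-221-5p and miR-222-3p.

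For the ratio of miR-221-3p to miR-222-3p, Lac7 against W10 became -0.0044 with a pseudocount of 0.1 and -0.14 with medians, Inv3 against W10 became 0.061 with a pseudocount of 10, and Inv3 against P18 passed the threshold with a pseudocount of 0.1 (-0.998). For that of miR-221-3p to miR-221-5p, a pseudocount of 10 gave 0.23 for Lac7 against P18, 0.082 for Inv3 against W10 and 0.0096 for Inv3 against P18, and medians gave 0.070 for Lac7 against P18.

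The mouse numbers do not pair the mice: over 188 miRNAs, deviations from the stage means had a mean correlation of -0.045 between the 33 pairs of libraries with one number and 0.004 between the other 183. With the replicate block, W10 mouse 7 has no partner and adds nothing, and 144 to 347 miRNAs per comparison changed, against 155 to 363. The block turned the sign of 1 ratio, Inv3 against W10 for miR-221-3p to miR-222-3p (0.018), and moved no call of a strand. The sign-flip test of a ratio cannot go below 0.0625 with 5 pairs or 0.03125 with 6, so it says nothing on stability.

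Leaving out 1 library in turn gave the ranges below for the results whose call or sign moved. For miR-222-3p they were 0.26 to 0.58 for Lac7 against W10 (past the threshold without Lac7 mouse 5), 0.43 to 0.71 for Inv3 against W10 (past it without W10 mouse 4) and -0.040 to 0.28 for Inv3 against Lac7. For miR-221-5p they were 0.49 to 0.93 for Inv3 against Lac7 (past it without Lac7 mouse 3) and -0.18 to 0.26 for Lac7 against W10. The ratio of miR-221-3p to miR-222-3p ranged from 0.73 to 0.97 for P18 against W10, from -1.04 to -0.72 for Lac7 against P18, from -1.04 to -0.81 for Inv3 against P18, from -0.19 to 0.11 for Inv3 against Lac7, from -0.19 to 0.11 for Lac7 against W10 and from -0.19 to 0.0015 for Inv3 against W10. That of miR-221-3p to miR-221-5p ranged from -0.35 to 0.11 for Lac7 against P18. No call of miR-221-3p moved with any library left out, but its small values did, from -0.15 to -0.042 for P18 against W10 and from 0.046 to 0.10 for Inv3 against Lac7. Those of miR-221-5p ran from -0.75 to -0.33 for P18 against W10 and from 0.38 to 0.82 for Lac7 against P18. Its ratio ran from 0.26 to 0.61 for P18 against W10, -0.85 to -0.39 for Inv3 against Lac7, 0.11 to 0.56 for Lac7 against W10 and -0.42 to -0.17 for Inv3 against W10. None of these passed the threshold. Depth limits miR-221-5p, with 162 reads in all, and miR-222-5p, with 17, where 1 read is worth 0.858 to 1.51 RPM.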
